A study of Mus musculus with 6 samples.

Results

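The growth factors and receptors through which tumor cells can act on blood and lymphatic vessels were followed in 3 mouse melanoma lines. The genes were taken by symbol, as 10 rows of the deposited expression table: the vascular endothelial growth factor (VEGF) family ligands Vegfb, Vegfc, Figf and Pgf, the VEGF receptors Kdr and Flt1, the angiopoietin Angpt2, the angiopoietin-like factor Angptl4, the hepatocyte growth factor Hgf, and Pdpn. Figf is the older symbol of the gene for VEGF-D. All 10 are among the 23951 genes of the table, and 5 of them (Vegfb, Vegfc, Angpt2, Angptl4 and Pdpn) passed the filter on low values, which was at least 1 FPKM (fragments per kilobase of transcript, scaled to the mapped reads of the library) in at least 2 libraries. Figf, Pgf, Kdr, Flt1 and Hgf did not pass it and were not tested.

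B16-F1 is a mouse melanoma line that the labels describe as having little metastatic potential. B16-F1R2 is its variant recovered from a metastasis in a lymph node, and B16-F1R2L was recovered from a lung metastasis that itself came from a lymph node metastasis. Each line was grown untreated in the same serum-containing medium and sequenced in 2 libraries, and the sources do not say whether these were separate cultures, so the p-values measure the spread between libraries, which may be technical. B16-F1 was bought from a repository, whereas both variants were obtained from a research group, so a difference from B16-F1 cannot be told apart from a difference in source.

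VEGF ligands are secreted dimers that bind receptor tyrosine kinases on endothelial cells. VEGF-A acts mainly through KDR, VEGF-B and placental growth factor (Pgf) bind FLT1, and VEGF-C and VEGF-D bind FLT4, the receptor of lymphatic endothelium, with the neuropilins as co-receptors. Angiopoietin-2 is a ligand of the endothelial receptor TEK (TIE2), HGF is the ligand of the MET receptor, ANGPTL4 is a secreted inhibitor of lipoprotein lipase that is induced by PPAR factors and by hypoxia, and podoplanin (Pdpn) is a membrane mucin known as a marker of lymphatic endothelium. Tumor VEGF-C and VEGF-D are known for driving lymphatic vessel growth around melanomas.

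Vegfb and Pdpn were the members that limma called lower in both variants than in B16-F1, and the 250 bases before their annotated starts are shown for that reason. RefSeq (GRCm38.p6, a later build than the one used for the reads) gave promoter windows for 8 of the 10 members, and Angpt2 and Angptl4 were not among them. The Vegfb window is chr19:6987652-6987901 on the minus strand and the Pdpn window is chr4:143299565-143299814 on the minus strand, both written 5′ to 3′ along the gene. Capitals mark the matches to 3 short motifs that were chosen after the windows had been seen, ACGTG (the core of the hypoxia response element), CACGTG (an E-box) and TCATGTG (the M-box bound by MITF), each searched on both strands.
Vegfb: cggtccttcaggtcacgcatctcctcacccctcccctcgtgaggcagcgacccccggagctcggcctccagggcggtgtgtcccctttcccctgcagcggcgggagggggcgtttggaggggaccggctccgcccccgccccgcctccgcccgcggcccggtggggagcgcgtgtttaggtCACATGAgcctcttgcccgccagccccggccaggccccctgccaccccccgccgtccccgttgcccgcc
Pdpn: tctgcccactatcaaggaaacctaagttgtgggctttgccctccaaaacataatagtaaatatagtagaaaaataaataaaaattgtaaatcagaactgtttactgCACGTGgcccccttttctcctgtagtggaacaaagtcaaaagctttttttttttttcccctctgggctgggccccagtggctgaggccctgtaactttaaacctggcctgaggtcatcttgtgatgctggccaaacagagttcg
The Vegfb window holds an M-box on the opposite strand, beginning 69 bases before the start, and 3.25% of the 32851 windows of this length in the RefSeq table hold that motif. The Pdpn window holds CACGTG, beginning 144 bases before the start, which also contains ACGTG on both strands. CACGTG is in 6.02% and ACGTG in 16.6% of all windows. The windows of the other 6 matched members hold none of the 3 motifs in these 250 bases. A match describes the letters and does not show binding.

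The table gives no read totals. The smallest values of genes annotated with 1 transcript put the depth at about 12600000 to 14700000 reads per library. The FPKM of all genes summed to between 596657 and 672794 per library, and replicates of the same line differed by a median of 0.0669 to 0.0951 on the log2 scale. Values were taken as log2(FPKM + 0.1) and the lines were compared with limma, which moderates the variance of each gene, over the 11379 genes that passed the filter. A difference was called at a Benjamini-Hochberg adjusted p under 0.05 over all of these genes. The smallest two-sided p of an exact permutation test of 2 libraries against 2 is 0.333, and each call therefore depends on the variance shared over genes.

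**Figure D1:**
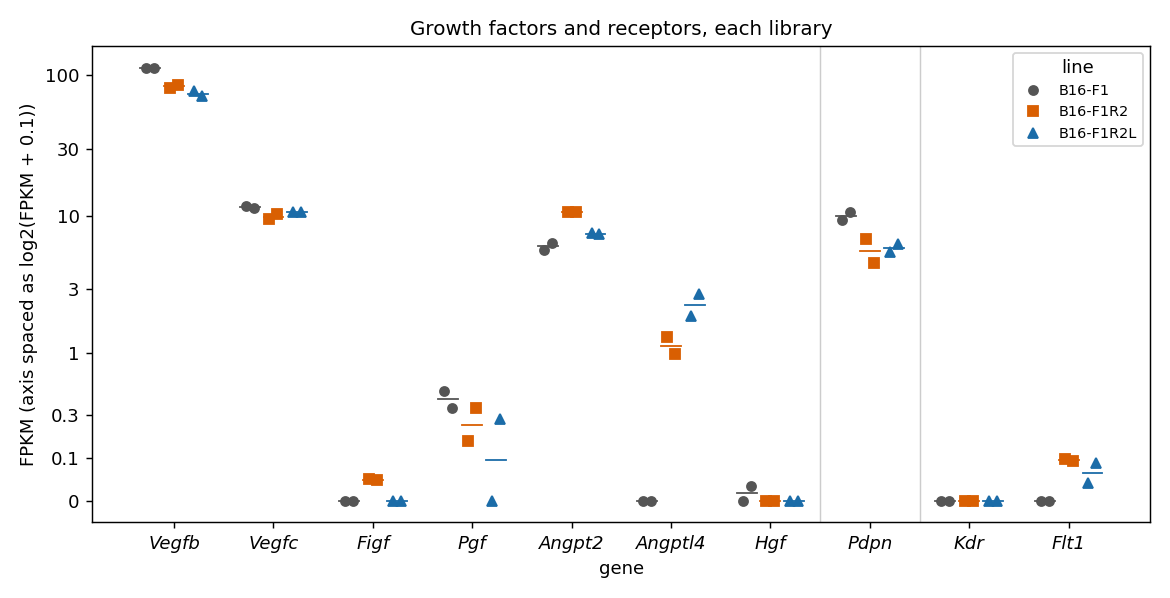
FPKM of the 10 genes in each of the 6 libraries, with the axis spaced as log2(FPKM + 0.1), 1 symbol per library and a line at the mean of each melanoma line on that scale. Vegfb lies far above the other genes at 70.7 to 113 FPKM, Kdr is at 0 in all 6 libraries, and Angptl4 is at 0 in both B16-F1 libraries only.

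Between B16-F1R2 and B16-F1, all 5 members tested were called, with Angpt2 and Angptl4 higher and Vegfb, Vegfc and Pdpn lower, where 55.4% of all genes tested were called in either direction, 28.2% higher and 27.2% lower. Between B16-F1R2L and B16-F1, 4 of the 5 were called (Vegfc was not), against 56.7% of all genes, 29.5% higher and 27.1% lower. Between B16-F1R2L and B16-F1R2 only Angpt2 was called among the 5, against 22.6% of all genes, of which 10.5% were lower like Angpt2. The libraries of the 2 lines did not overlap for any of the 5 against B16-F1, as for 80.0% (B16-F1R2) and 80.8% (B16-F1R2L) of all tested genes, and between the variants they overlapped for Pdpn alone, where 65.2% of all genes did not overlap. Both variants were compared with the same B16-F1 libraries. Because calls against B16-F1 were this common, and because Angptl4 passed the filter through the variant libraries alone, these counts describe the members and set nothing apart.

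Among the ligands, Vegfb was by far the most abundant member in each line. Vegfb (ENSMUSG00000024962.7, chromosome 19 of NCBIM37 from 7056963 to 7062141, minus strand) had 112 and 113 FPKM in B16-F1, 81.3 and 85.3 FPKM in B16-F1R2, and 77.3 and 70.7 FPKM in B16-F1R2L. The libraries of the 3 lines did not overlap, with B16-F1 highest and B16-F1R2L lowest. Only 3.8% of all genes in the table had a higher mean FPKM than Vegfb in B16-F1, against 5.34% in B16-F1R2L. The mean FPKM of Vegfb was 0.741 times the B16-F1 mean in B16-F1R2 (log2 difference -0.43, standard error 0.06, adjusted p = 9.2e-04 from limma). In B16-F1R2L it was 0.659 times the B16-F1 mean (log2 difference -0.60, adjusted p = 2.2e-04). Differences of a larger size than that of Vegfb were common, at 32.0% and 21.6% of the tested genes in these comparisons. The further difference between the variants, -0.17 with a 95% interval from -0.30 to -0.04, did not pass the threshold (adjusted p = 0.069 from limma).

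Vegfc, the lymphangiogenic ligand of FLT4, was expressed in every line at similar levels. Vegfc (ENSMUSG00000031520.4, chromosome 8 from 55162886 to 55271808, plus strand) had 11.9 and 11.5 FPKM in B16-F1, 9.50 and 10.4 FPKM in B16-F1R2, and 10.7 and 10.8 FPKM in B16-F1R2L. Both B16-F1 libraries were above all 4 variant libraries, by little. The log2 difference of B16-F1R2 from B16-F1 was -0.23 with a 95% interval from -0.39 to -0.07 (adjusted p = 0.027 from limma), a size that 56.4% of the tested genes exceeded. This call was lost when B16-F1 replicate 1, B16-F1 replicate 2 or B16-F1R2 replicate 1 was left out (adjusted p = 0.12, 0.071 and 0.13) and when the libraries were rescaled to an equal sum (adjusted p = 0.065). For B16-F1R2L the difference was -0.12 with an interval from -0.28 to 0.04, and it was called only after quantile normalization (-0.19, adjusted p = 0.044). Between the variants it was 0.11 with an interval from -0.05 to 0.27. No comparison called a rise of Vegfc.

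The other lymphangiogenic ligand, VEGF-D, was at the level of single reads. Figf (ENSMUSG00000031380.9, chromosome X from 160811310 to 160840582) was listed at 0 in both B16-F1 and both B16-F1R2L libraries and had 0.0409 and 0.0391 FPKM in B16-F1R2, each of which corresponds to about 1.2 reads at its longest transcript. Pgf (ENSMUSG00000004791.6, chromosome 12 from 86507589 to 86518246) stayed under 0.5 FPKM in every library. Its values were 0.494 and 0.351 FPKM in B16-F1, 0.163 and 0.349 FPKM in B16-F1R2, and 0 and 0.279 FPKM in B16-F1R2L, or between 0 and about 10.3 reads. Both B16-F1 libraries were above all variant libraries, the lower of them by 0.351 against 0.349 FPKM, and the variants overlapped. Without the filter limma did not call Pgf (adjusted p = 0.54 and 0.17 against B16-F1), so no difference was detectable at this depth.

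VEGF-A, the paralog of these ligands, was no member. Vegfa had 7.05 and 6.05 FPKM in B16-F1, 9.06 and 9.35 FPKM in B16-F1R2, and 17.2 and 20.3 FPKM in B16-F1R2L, and the 3 lines did not overlap. It rose in B16-F1R2 over B16-F1 (log2 difference 0.49, adjusted p = 0.0089 from limma) and in B16-F1R2L over B16-F1 (95% interval 1.24 to 1.76, adjusted p = 7.9e-05), and B16-F1R2L exceeded B16-F1R2 by 1.01 (adjusted p = 0.0042). Vegfa and Vegfb thus moved in opposite directions from B16-F1 to both variants. Vegfb held 85.2% and 86.3% of the summed FPKM of the 5 VEGF ligand genes in B16-F1. Its share was 81.2% and 80.9% for B16-F1R2 libraries and 73.5% and 69.3% for those of B16-F1R2L. Vegfa made up 5.38% and 4.62% of that sum in B16-F1, which compares with 9.06% and 8.87% for B16-F1R2 and with 16.3% and 19.9% for B16-F1R2L. Within a library the ratio of Vegfb to Vegfa, which no scaling of whole libraries can change, was 15.8 to 18.7 for B16-F1, 8.97 to 9.12 for B16-F1R2 and 3.48 to 4.51 for B16-F1R2L. These shares compare FPKM, a level per length of transcript, and were not tested.

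**Figure D2:**
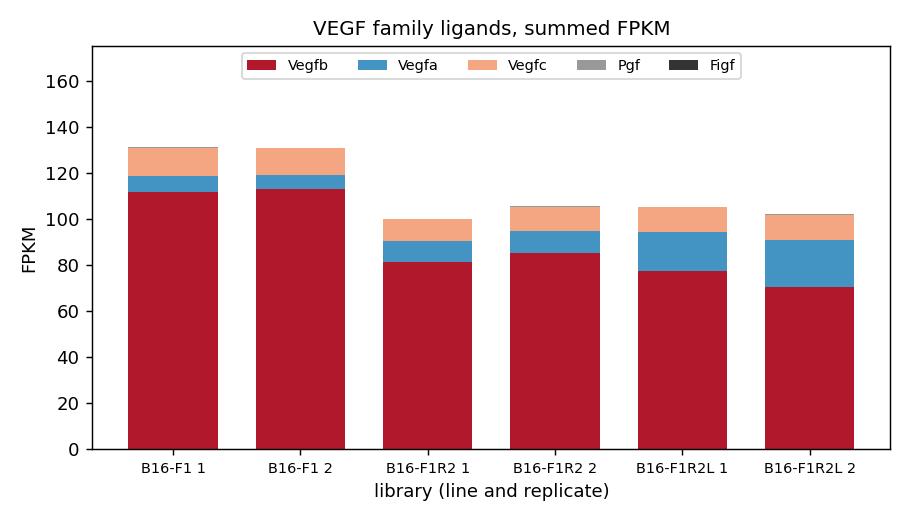
Stacked bars of the FPKM of Vegfb, Vegfa, Vegfc, Pgf and Figf in each library, starting at 0, with the library (line and replicate) on the horizontal axis. The sum falls from 131 FPKM in B16-F1 to between 100 and 105 in the variants, and the Vegfa part is widest in B16-F1R2L.

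The receptors that these ligands use on endothelium were all under 1 FPKM in every library. Kdr (ENSMUSG00000062960.6, chromosome 5 from 76328852 to 76374483, minus strand), the main receptor of VEGF-A, was listed at 0 in all 6 libraries, where 1 read would be worth about 0.0125 FPKM. Flt1 (ENSMUSG00000029648.7, chromosome 5 from 148373180 to 148537587, minus strand), the receptor of VEGF-A, VEGF-B and Pgf, was listed at 0 in both B16-F1 libraries. It had 0.0961 and 0.0908 FPKM in B16-F1R2 and 0.0323 and 0.0854 FPKM in B16-F1R2L, which are at most about 9.1 reads, and 0.134% of its stretches of 50 bases also occur in transcripts of another gene. Without the filter on low values limma called a rise of Flt1 and Figf from B16-F1 to B16-F1R2 (log2 differences 0.95 and 0.49, adjusted p = 0.016 and 0.024), at these few reads. Flt4, the receptor of VEGF-C and VEGF-D and no member, also stayed under 1 FPKM, with 0.528 and 0.539 FPKM for B16-F1, 0.311 and 0.347 FPKM for B16-F1R2, and 0.764 and 0.809 FPKM for B16-F1R2L, and was not tested.

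The neuropilin co-receptors were well expressed. Nrp2, the neuropilin of lymphatic vessels that binds VEGF-C, had 80.6 and 82.1 FPKM in B16-F1, 110 and 119 FPKM in B16-F1R2, and 126 and 127 FPKM in B16-F1R2L. It was higher in both variants than in B16-F1, with log2 differences of 0.49 and 0.64 (adjusted p = 2.8e-04 and 9.7e-05 from limma). Nrp1 lay between 8.62 and 9.51 FPKM in all libraries, and its log2 difference of B16-F1R2 from B16-F1 was -0.03 with a 95% interval from -0.20 to 0.15. Sema3f, a class 3 semaphorin that competes for NRP2, had 0.417 and 0.262 FPKM in B16-F1 and rose to 4.57 and 4.52 FPKM in B16-F1R2 (log2 difference 3.42, adjusted p = 3.0e-05), with 6.63 and 5.70 FPKM in B16-F1R2L. Of the 6 genes listed as other VEGF ligands and receptors, 4 were tested, of which 3 were higher and Nrp1 was not called in B16-F1R2 against B16-F1, where 28.2% of all genes were higher. The median of the 4 was 0.49, against 0.00462 over all tested genes. Sema3f was under 1 FPKM in B16-F1 and passed the filter through the variants alone, so it had to be higher there and adds nothing to the count, and its difference ran from 2.05 to 3.74 over the alternatives.

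VEGF-C and VEGF-D are secreted as precursors that proteases must cleave. Of 7 genes listed for this step only Furin, Pcsk7 and Plat were tested. Furin, a proprotein convertase, was lower in B16-F1R2, at 15.2 and 15.7 FPKM against 20.2 and 19.6 FPKM in B16-F1 (log2 difference -0.36, adjusted p = 0.0058 from limma). It was also lower in B16-F1R2L, at 18.3 and 16.1 FPKM (-0.21, adjusted p = 0.044). The difference between the variants was not called (0.15, adjusted p = 0.17). Pcsk7 and Plat were not called. Thus 1 of the 3 was lower in each variant than in B16-F1, beside 27.2% (B16-F1R2) and 27.1% (B16-F1R2L) of all genes. Adamts3, the protease that activates VEGF-C with its cofactor, was listed at 0 in all 6 libraries.

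Angpt2 was the only member called between the variants, although the difference of Angptl4 was larger (0.95, adjusted p = 0.056 from limma). Angpt2 (ENSMUSG00000031465.6, chromosome 8 from 18690263 to 18741562, minus strand) had 5.76 and 6.45 FPKM in B16-F1, 10.8 and 10.8 FPKM in B16-F1R2, and 7.62 and 7.43 FPKM in B16-F1R2L. The 3 lines did not overlap, with B16-F1R2 highest and B16-F1R2L in between. The mean in B16-F1R2 was 1.77 times that in B16-F1 (log2 difference 0.82, standard error 0.08, adjusted p = 2.5e-04 from limma), and a larger difference was found at 13.8% of the tested genes. B16-F1R2L was below B16-F1R2 by -0.52 (95% interval -0.70 to -0.33, adjusted p = 0.0096), a call that was lost without B16-F1R2 replicate 1 (adjusted p = 0.062) or without B16-F1R2L replicate 2 (adjusted p = 0.053). Against B16-F1 its difference was 0.30 (adjusted p = 0.016), which was not called after quantile normalization (0.16, adjusted p = 0.12), without B16-F1 replicate 1 (0.22, adjusted p = 0.087) or without B16-F1R2L replicate 1 (0.28, adjusted p = 0.063).

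The receptors of Angpt2 were listed at 0 and its sister ligands lay at most at 0.126 FPKM. Tek and Tie1, the angiopoietin receptors, were listed at 0 in all 6 libraries. Angpt1, the ligand that activates TEK, was listed at 0 in all but B16-F1 replicate 2, where it had 0.0449 FPKM. Angpt4, another ligand of TEK, had 0.0671 and 0.126 FPKM in B16-F1R2, 0 and 0.0547 FPKM in B16-F1R2L, and was listed at 0 in B16-F1. Of 9 angiopoietin and angiopoietin-like genes other than the members, Angptl2 and Angptl6 alone were tested, and neither was called in B16-F1R2 against B16-F1, where 55.4% of all genes were. Angptl6 was higher in B16-F1R2L, by 0.68 against B16-F1 (adjusted p = 0.035 from limma) and Angptl2 in B16-F1R2L against B16-F1R2 by 0.16 (adjusted p = 0.034), which makes 1 of the 2 called in each of these comparisons, beside 56.7% and 22.6% of all genes. Angptl2, a secreted factor that lay at 49.8 to 56.9 FPKM, was far above Angpt2 in every library.

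Angptl4, like Flt1 at far lower values, was listed at 0 in B16-F1 and had reads in all 4 variant libraries. Angptl4 (ENSMUSG00000002289.9, chromosome 17 from 33910695 to 33918520, minus strand) was listed at 0 in both B16-F1 libraries. It had 1.32 and 0.975 FPKM in B16-F1R2 and 1.902 and 2.76 FPKM in B16-F1R2L, or roughly 43.4 to 124 reads at its longest transcript. The 3 lines did not overlap. On the log2(FPKM + 0.1) scale B16-F1R2 was above B16-F1 by 3.63 (95% interval 2.95 to 4.31, adjusted p = 1.1e-04 from limma) and B16-F1R2L by 4.58 (3.90 to 5.26, adjusted p = 4.3e-05). The pseudocount sets the size of these differences, which for B16-F1R2 ran from 1.10 to 6.84 over the alternatives, and no fold is given against libraries at 0. B16-F1R2L had 2.03 times the mean FPKM of B16-F1R2 (log2 difference 0.95, 95% interval 0.27 to 1.63), which did not pass the threshold (adjusted p = 0.056) but did under 4 of the 16 alternatives that could be run (adjusted p = 0.030 to 0.24 over all 16).

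Among the 11 genes listed as regulators of Vegfa and Angptl4, 8 were tested. In B16-F1R2 against B16-F1, 1 was higher, 5 were lower and 2 were not called, beside 28.2% higher and 27.2% lower among all genes, and their median was -0.31. In B16-F1R2L against B16-F1, 3 were higher (Hif1a, Egln1 and Ppargc1a), 3 were lower and 2 were not called, beside 29.5% and 27.1% of all genes, with a median of -0.16. Ppard, the PPAR factor most expressed here, was lower, at 28.9 and 30.5 FPKM in B16-F1 against 13.2 and 13.5 FPKM in B16-F1R2 and 16.01 and 15.6 FPKM in B16-F1R2L (log2 difference -1.15 for B16-F1R2, adjusted p = 1.4e-05 from limma). Vhl, whose product marks hypoxia-inducible factors for degradation, was lower by -0.55 (adjusted p = 7.1e-04), and Epas1, a hypoxia-inducible factor, by -0.50 (adjusted p = 0.038). The call of Epas1 was lost with no filter (adjusted p = 0.067) and without B16-F1 replicate 2, B16-F1R2 replicate 1 or B16-F1R2 replicate 2 (adjusted p = 0.20, 0.14 and 0.074). Ppargc1a, a PPAR coactivator, was the 1 higher gene, at 8.65 and 9.46 FPKM in B16-F1R2 over 3.57 and 3.97 FPKM in B16-F1 (log2 difference 1.24, adjusted p = 9.5e-05). In B16-F1R2L against B16-F1R2, 4 of these 8 were higher and the others were not called, where 12.1% of all genes were higher, with a median of 0.20. When the libraries were rescaled to an equal sum the median over all genes in that comparison was 0.129 in place of 0.022.

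**Figure D3:**
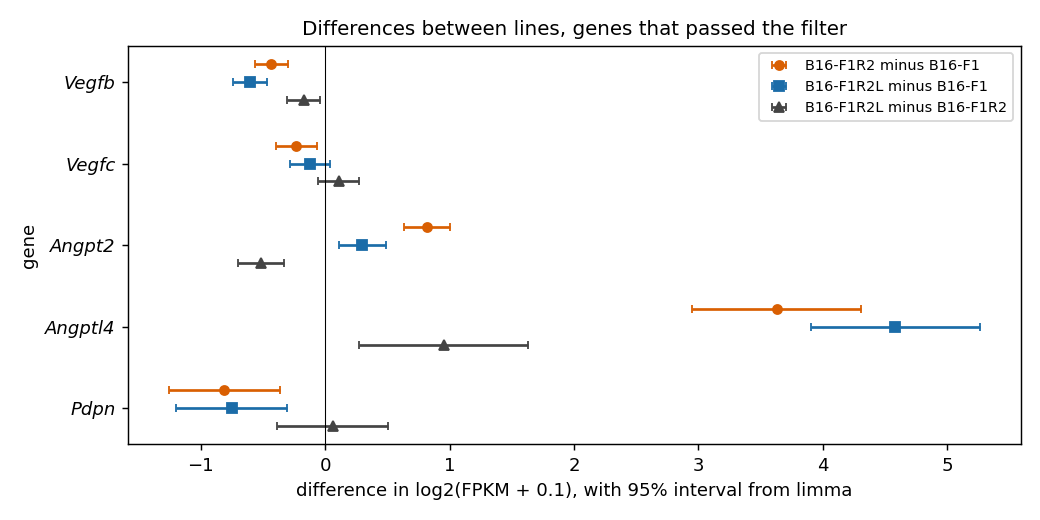
Differences in log2(FPKM + 0.1) between each pair of lines for the 5 members that passed the filter, with 95% intervals from limma. Angptl4 has the largest differences from B16-F1 at 3.63 and 4.58, and for Angpt2 the B16-F1R2L interval against B16-F1R2 lies below 0 at -0.70 to -0.33.

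The melanoma lines held RNA of the receptor for HGF but almost none of Hgf itself, and protein was not measured here. Hgf (ENSMUSG00000028864.3, chromosome 5 from 16059368 to 16125257, plus strand) was listed at 0 in 5 libraries and had 0.0270 FPKM in B16-F1 replicate 2, about 0.9 of a read. Met, its receptor tyrosine kinase, had 146 and 147 FPKM in B16-F1, 34.5 and 34.7 FPKM in B16-F1R2, and 43.0 and 45.8 FPKM in B16-F1R2L. The 3 lines did not overlap. Met was lower than in B16-F1 by -2.08 (B16-F1R2) and -1.72 (B16-F1R2L) (adjusted p = 9.4e-07 and 1.8e-06 from limma), and B16-F1R2L exceeded B16-F1R2 by 0.36 (adjusted p = 0.0070). A difference larger in size than that of Met in B16-F1R2 was found at 5.18% of the tested genes.

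The MET-related receptor and its partners were near 0 in B16-F1. Mst1r, the gene of the receptor RON for macrophage-stimulating protein, was listed at 0 in both B16-F1 libraries and had 3.27 and 3.80 FPKM in B16-F1R2 and 5.48 and 6.96 FPKM in B16-F1R2L (log2 difference 5.18 for B16-F1R2, adjusted p = 5.2e-06 from limma). Its ligand Mst1 had 0.0817 and 0 FPKM in B16-F1, 2.58 and 2.34 FPKM in B16-F1R2, and 4.52 and 5.54 FPKM in B16-F1R2L (4.25, adjusted p = 7.7e-05). The exons of Mst1 overlap those of Rnf123 on the opposite strand and 4.33% of its stretches of 50 bases occur in another gene, so its values are uncertain. Hpn, the gene of hepsin, a membrane protease that can activate HGF and macrophage-stimulating protein, had 0.124 and 0.131 FPKM in B16-F1 and rose to 5.36 and 5.29 FPKM in B16-F1R2 (4.58, adjusted p = 7.2e-06) and had 9.25 and 6.58 FPKM in B16-F1R2L. The pseudocount sets the size of these differences too, which over the alternatives ran from 2.18 to 8.47 for Mst1r, from 1.73 to 6.35 for Mst1 and from 2.49 to 5.28 for Hpn. Of the 9 genes listed for the HGF receptor, activating proteases and their inhibitors, 5 were tested, of which 4 were higher and Met was lower in B16-F1R2, beside 28.2% and 27.2% among all genes. The 4 higher genes were at or below 0.261 FPKM in B16-F1 and passed the filter through the variants alone, so they had to be higher there.

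**Figure D4:**
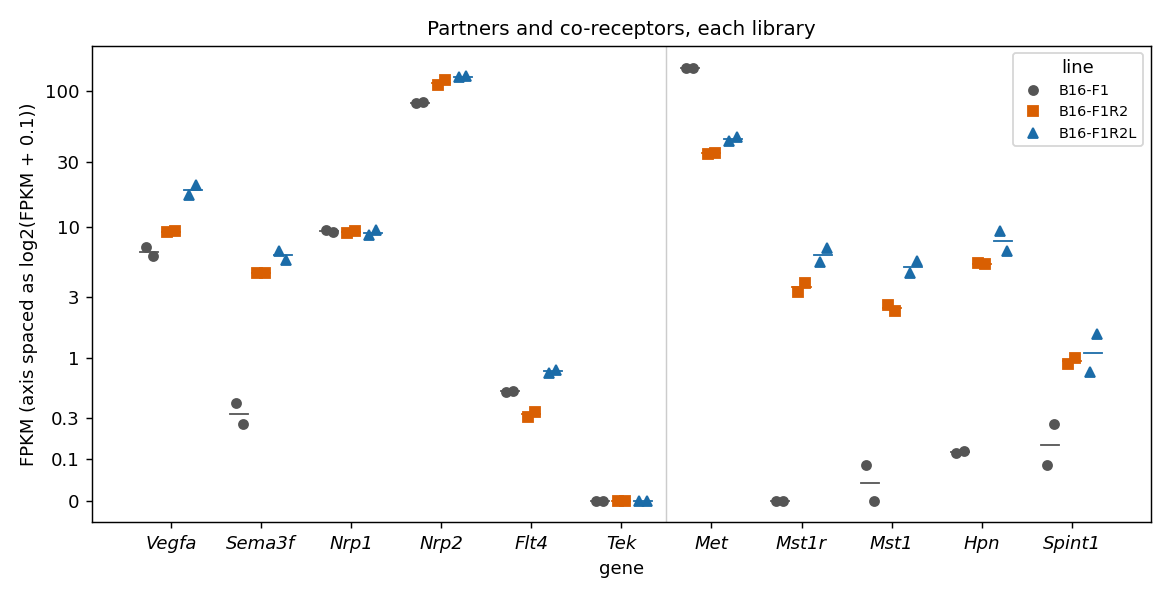
FPKM of ligands, receptors and proteases that partner the 10 genes, in each of the 6 libraries, with the axis spaced as log2(FPKM + 0.1) and a line at the mean of each melanoma line on that scale. Met falls from 146 to 147 FPKM in B16-F1 to under 46 in all variant libraries while Mst1r, Mst1, Hpn and Sema3f rise from under 0.5 FPKM, and Tek is at 0 throughout.

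Podoplanin was lower in both variants. Pdpn (ENSMUSG00000028583.8, chromosome 4 from 142857334 to 142889467, minus strand) had 9.44 and 10.7 FPKM in B16-F1, 6.92 and 4.67 FPKM in B16-F1R2, and 5.53 and 6.37 FPKM in B16-F1R2L. Both B16-F1 libraries were above all 4 variant libraries, and the variants overlapped. The B16-F1R2 mean was 0.576 times the B16-F1 mean (log2 difference -0.81, 95% interval -1.26 to -0.36, adjusted p = 0.010 from limma). Without B16-F1R2 replicate 2 this difference was -0.53, without B16-F1R2 replicate 1 it was -1.09, and without B16-F1 replicate 2 the adjusted p was 0.047. The B16-F1R2L mean was 0.591 times it (-0.75, adjusted p = 0.014), and this call was lost without B16-F1 replicate 2 (adjusted p = 0.062) or without B16-F1R2L replicate 1 (adjusted p = 0.071). The difference between the variants was 0.06 with an interval from -0.39 to 0.51. Its replicates in B16-F1R2 lay far apart, at 5.79 ± 1.59 FPKM (SD, n = 2).

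Podoplanin binds the platelet receptor CLEC-2 outside the cell and the ezrin, radixin and moesin anchors inside it. Clec1b, which encodes CLEC-2, and Ccl21a, a lymphatic chemokine, were listed at 0 in all libraries. Of 8 genes listed as partners and anchors, 6 were tested, with 2 higher (Cd9 and Rdx), 2 lower (Lgals8 and Ezr) and 2 not called in B16-F1R2, beside 28.2% higher and 27.2% lower among all genes. Lgals8, a galectin that binds podoplanin, had the largest difference of them, at 40.5 and 38.4 FPKM in B16-F1, 18.8 and 19.7 FPKM in B16-F1R2, and 25.0 and 26.3 FPKM in B16-F1R2L (log2 difference -1.03 for B16-F1R2, adjusted p = 2.7e-05 from limma). Ezr, Rdx and Cd9 differed by -0.20, 0.16 and 0.26. The call of Ezr was lost without either B16-F1 replicate (adjusted p = 0.053 and 0.057 from limma). That of Rdx was lost without B16-F1 replicate 2 or either B16-F1R2 replicate (adjusted p = 0.15, 0.054 and 0.086), after rescaling to an equal sum (0.066) and with no trend (0.051).

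On the FPKM scale, which allows levels to be set side by side per length, the order within B16-F1 was Vegfb, Vegfc, Pdpn, Angpt2 and Pgf, followed by members at or near 0. In both variants Angptl4 stood above Pgf and below Pdpn, and in B16-F1R2 Angpt2 stood above Vegfc. No neighbours among Vegfb, Vegfc, Angpt2, Pdpn and Angptl4 overlapped between their 2 libraries within a line, while Pgf and Flt1 overlapped in B16-F1R2L.

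Since several members are known from endothelium, marker lists of other cells were read in the same libraries. Of 12 endothelial markers, 8 were at 0 in both B16-F1 libraries, 6 in those of B16-F1R2 and 5 in those of B16-F1R2L, while Cdh5, Tek, Tie1, Cldn5 and Erg were at 0 in all 6. The summed FPKM of that list was 106 to 113 in B16-F1, 88.6 to 91.7 in B16-F1R2 and 99.3 to 108 in B16-F1R2L, most of it from Eng, at 60.0 to 101 FPKM. Eng was lower in both variants (log2 differences -0.57 and -0.61), and the other 3 endothelial markers tested were higher in both. Among all genes 28.2% (B16-F1R2) and 29.5% (B16-F1R2L) were higher and 27.2% and 27.1% were lower. Of the 3 higher markers, Pecam1 and Vwf passed the filter through the variants alone and had to be higher there. Pecam1 was at 0 in B16-F1 and at 0.752 to 1.26 FPKM in the variants. Vwf had 0.0875 and 0.144 FPKM in B16-F1, 1.11 and 1.33 FPKM in B16-F1R2, and 1.71 and 2.15 FPKM in B16-F1R2L. Egfl7, whose exons overlap other genes on both strands, had 9.04 and 11.9 FPKM in B16-F1, 20.9 and 22.002 FPKM in B16-F1R2, and 35.6 and 35.7 FPKM in B16-F1R2L. The part of these markers in the results was not tested. Of 6 lymphatic endothelial markers Lyve1, Ccl21a and Mmrn1 were at 0 in all libraries, and the sum was 2.17 to 2.19 FPKM in B16-F1, 1.10 to 1.32 FPKM in B16-F1R2 and 1.92 to 1.93 FPKM in B16-F1R2L. Prox1, the 1 marker of that list that was tested, was lower in both variants, with log2 differences of -0.84 and -0.49 (adjusted p = 0.0057 and 0.043 from limma). Among all genes 27.2% (B16-F1R2) and 27.1% (B16-F1R2L) were lower. Prox1 lay near the filter. It had 1.66 and 1.63 FPKM in B16-F1, 0.790 and 0.969 FPKM in B16-F1R2, and 1.16 and 1.12 FPKM in B16-F1R2L. Flt4, on the same list, was lower than in B16-F1 in B16-F1R2 but higher in B16-F1R2L. Its B16-F1R2L values were 0.764 and 0.809 FPKM, against 0.528 and 0.539 FPKM in B16-F1. The part of these markers in the results was not tested. Of 8 leukocyte markers in the table Ptprc and Itgam were at 0 in all libraries, and the sum, nearly all from Cd68, was 1.02 to 1.76 FPKM in B16-F1, 1.05 to 1.95 FPKM in B16-F1R2 and 1.16 to 2.85 FPKM in B16-F1R2L. Of 9 fibroblast and pericyte markers Dcn, Lum and Rgs5 were at 0 in all libraries, and the sum went from 1.14 to 1.33 FPKM in B16-F1 to 22.4 to 23.2 FPKM in B16-F1R2 and 9.90 to 11.04 FPKM in B16-F1R2L mostly through Col1a1 and Pdgfrb, and its part in the results was not tested. The 8 melanocyte markers were all detected in every line, so the defining genes of the labelled cell type were present. Their sum was 15018 to 15052 FPKM in B16-F1, 7945 to 8160.5 FPKM in B16-F1R2 and 8963 to 8971 FPKM in B16-F1R2L, and 7 of the 8 were called lower in each variant, where 27.2% (B16-F1R2) and 27.1% (B16-F1R2L) of all genes were lower. Mitf was the exception in B16-F1R2L, where it was higher, with 112 and 127 FPKM against 92.3 and 88.7 FPKM in B16-F1 (log2 difference 0.40, adjusted p = 0.0032 from limma). The markers moved with the lines, and their part in the results was not tested. In these bulk libraries fewer cells of a kind and less RNA per cell cannot be told apart.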

How the data were processed

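RNA of 3 mouse melanoma lines was measured in 2 libraries each. Per the study's methods and the submitters' processing notes, polyadenylated RNA was prepared with a stranded kit, read from 1 end over 50 bases, and mapped against NCBI37/mm9 by TopHat 2.0.10 and Bowtie 1.0.0, with 2 mismatches and 20 positions per read allowed. The authors deposited FPKM values for 23951 genes, with replicates not pooled, and the notes name Cuffnorm. The gene annotation and whether strand was used are not given in the sources used here. The study tested counts with DESeq2, whereas FPKM are not counts and were tested here as log2(FPKM + 0.1) with limma 3.58.1 in R 4.3.3 (eBayes with a trend, all 6 libraries, no block), which understates changes of low genes. Columns were matched to samples by title. Gene models came from NCBIM37 (GENCODE). The step recovered 183 of 200 genes changed by 1.5 on the log2 scale in simulated data for B16-F1R2 against B16-F1 and called 7 of the other genes among 11379. The simulated noise was independent between libraries, and no smaller change was simulated. This run therefore does not measure how reliable calls as small as those of Vegfb, Vegfc, Angpt2 and Pdpn are. It also changed far fewer genes than the 55.4% called in the data. The value of 1 read came from genes with 1 transcript of over 1500 bases whose implied depth lay in the chosen range. Read numbers are therefore estimates that depend on that range, and no counting interval was computed. Other steps used Python 3.11.15 with pandas 2.3.3 and matplotlib 3.10.9. The genes named were the 10 members, Vegfa, Flt4, Nrp1, Nrp2, Tek and Met, and at most 4 called genes of largest difference per list. Angpt1, Angpt4, Hif1a, Egln1, Angptl2, Angptl6, Pcsk7, Plat, Adamts3, Clec1b, Ccl21a, Adamts1, Thbs1, Thbs2 and the cell markers, which this does not take in, were named after their values were seen. The members and lists were chosen with earlier results of these data known. Alternatives were other pseudocounts, filters, scalings, no trend, 4 libraries, a replicate block, a minimum difference and each library left out.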

Additional observations from a re-analysis of the deposited data

How the results depend on the processing

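Of the values of single genes recomputed under the alternatives, 711 kept their direction and their side of the threshold, 52 lost and 7 gained a call, and 5 changed direction. The number of members called in B16-F1R2 against B16-F1, reported as 5, ran from 4 to 7 except for 1 with a log2 difference of at least 1 required, and 7 came without the filter. Leaving out 1 library at a time gave 4 to 5. In B16-F1R2L against B16-F1, reported as 4, it was 1 with that requirement and ran from 2 to 4 with libraries left out, where 2 came without B16-F1R2L replicate 1. In B16-F1R2L against B16-F1R2, reported as 1, it was 2 with a pseudocount of 1, after rescaling to an equal sum, with no trend or from only the 4 libraries compared, 0 with a log2 difference of at least 1 required, and 0 to 2 with libraries left out (0 without B16-F1R2 replicate 1 or B16-F1R2L replicate 2, and 2 without B16-F1R2L replicate 1). The cause of these moves was not tested, beyond the stricter rule itself. The difference of Pdpn between the variants turned to -0.038 after quantile normalization and ran from -0.22 (without B16-F1R2 replicate 2) to 0.34 (without B16-F1R2 replicate 1) with libraries left out. That of Nrp1 in B16-F1R2 ran from -0.060 (without B16-F1 replicate 2) to 0.0059 (without B16-F1 replicate 1). Angptl4 could not be tested at a filter of 5 FPKM, nor against B16-F1 from only the B16-F1 and B16-F1R2 libraries.

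Over all genes, B16-F1R2 against B16-F1 had 3207 higher and 3098 lower genes, or 819 and 328 with a log2 difference of at least 1, and the balance turned to 2919 and 3370 after quantile normalization and to 2468 and 2750 at a filter of 5 FPKM. B16-F1R2L against B16-F1 had 3361 and 3086, or 957 and 259 under that rule and 4075 and 2043 after rescaling to an equal sum, where the median over all genes was 0.118 in place of 0.0166, while the balance turned to 2857 and 3591 after quantile normalization, 3164 and 3303 after median ratio scaling and 2432 and 2827 at a filter of 5 FPKM. B16-F1R2L against B16-F1R2 had 1378 and 1190, or 116 and 24 under that rule, 2079 and 489 after rescaling, 1110 and 1132 after quantile normalization, 1216 and 1312 after median ratio scaling, 1191 and 1240 at a filter of 5 FPKM, 923 and 743 with no filter, 1091 and 650 with no trend, and from 317 and 155 (without B16-F1R2 replicate 1) to 1051 and 782 or 928 and 1038 with a library left out. The labels number the replicates alike, but nothing says that a number marks a shared batch, and the differences between replicates 1 and 2 correlated across genes at 0.0519, -0.102 and 0.0789 between the lines. With a replicate block 5, 4 and 1 members were called in the 3 comparisons, the same numbers as without it, and Epas1 was not called in B16-F1R2 against B16-F1 (adjusted p = 0.054).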

Other observations

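Of 9 genes listed as restraining vessel growth, 5 were tested. In B16-F1R2 against B16-F1, 4 were higher and 1 (Adamts1) was not called, beside 28.2% of all genes higher, with a median log2 difference of 0.77. In B16-F1R2L against B16-F1, 3 were higher and 2 (Adamts1 and Sparc) were lower, beside 29.5% and 27.1% of all genes. Vash1, an endothelium-derived inhibitor of angiogenesis, had 1.71 and 1.88 FPKM in B16-F1, 7.26 and 7.26 FPKM in B16-F1R2, and 7.40 and 7.35 FPKM in B16-F1R2L (log2 difference 1.96 for B16-F1R2, adjusted p = 1.1e-05 from limma). Serpinf1, which encodes the antiangiogenic factor PEDF, rose from 2.39 and 2.90 FPKM to 8.25 and 9.03 FPKM (1.67, adjusted p = 5.5e-05), and Timp3, a protease inhibitor that also blocks KDR, from 3.31 and 3.11 FPKM to 5.09 and 6.04 FPKM (0.77, adjusted p = 0.0031). Sparc, a matricellular protein, was higher by 0.19 in B16-F1R2 and lower by -0.25 in B16-F1R2L (adjusted p = 0.014 and 0.0047). The first of these calls was lost after quantile normalization (adjusted p = 0.059) and without B16-F1 replicate 1 or 2 (adjusted p = 0.073 and 0.096). Thbs1 and Thbs2, the thrombospondins, did not pass the filter. Thbs1 had 0.954 and 1.19 FPKM in B16-F1, 0.525 and 0.397 FPKM in B16-F1R2, and 0.359 and 0.339 FPKM in B16-F1R2L. Thbs2 had 0.507 and 0.531 FPKM in B16-F1 and at most 0.0129 FPKM in the variants.

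Of 20 genes listed for signalling below VEGF receptors, 18 were tested, and in B16-F1R2 against B16-F1 there were 4 higher, 8 lower and 6 not called, beside 28.2% and 27.2% of all genes. Hspb1, a small heat shock protein phosphorylated below these receptors, rose from 14.1 and 17.6 FPKM to 67.8 and 67.5 FPKM (log2 difference 2.10, adjusted p = 4.3e-05 from limma). The kinase Src fell from 31.4 and 32.6 FPKM to 17.1 and 17.3 FPKM (-0.89, adjusted p = 7.7e-05), Shb, an adaptor, differed by -0.48 (adjusted p = 0.018) and Pik3ca, a lipid kinase, by -0.38 (adjusted p = 0.0058). The call of Shb was lost without B16-F1 replicate 1, B16-F1 replicate 2 or B16-F1R2 replicate 2 (adjusted p = 0.085, 0.066 and 0.064). These genes also serve other receptors.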
